A study of Mus musculus with 6 samples.

Results

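The collagen chain genes are the protein-coding genes of the deposited count table whose symbols have the form Col, a number, a and a number. This rule matched 44 of 56748 genes in the table. It used names and biotype only, but the family was proposed with results of the same comparison known, so the counts of changed members below describe the family and support nothing about it. The study compared bulk RNA sequencing of mouse leukemia cells from bone marrow between 3 libraries labelled WT for Rbm5 (wild type, numbers 25, 27 and 29) and 3 labelled Rbm5 KO (knockout, numbers 31, 32 and 40). All 6 are leukemias driven by the fusion oncogene MLL-AF9, which transforms myeloid progenitors. RBM5 binds RNA and takes part in splicing, and the series asked how it acts on the self-renewal genes of MLL leukemia. The labels give no age, strain or treatment, do not say how Rbm5 was deleted, call the material both whole bone marrow and cultured cells, and name the libraries independent replicates without saying from how many animals. The p-values therefore measure the spread between these libraries, which may be technical in part.

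Total counts ran from 26359299 to 31807588 per library. Levels are given as CPM, a gene's share of the counts scaled to a fixed library size with TMM, a factor that corrects for differences in RNA composition. Rbm5 itself was at 227, 214 and 173 CPM in WT libraries 25, 27 and 29 and at 269, 266 and 245 CPM in KO libraries 31, 32 and 40, so the targeted gene was not lower in the libraries labelled KO (log2FC, the log2 fold change of KO over WT, 0.34, edgeR adjusted p = 0.107). The table has 1 count per gene and cannot show the loss of an exon. The Y-linked gene Ddx3y had 0 counts in each WT library and 2645 to 3311 in the KO libraries. The X-linked Xist was at 1623, 1361 and 1267 CPM in WT libraries 25, 27 and 29. In KO libraries 31, 32 and 40 it was at 13.0, 192 and 32.4 CPM, so library 32 stood above the other KO libraries. Sex and label therefore cannot be told apart in any value below. KO and WT stand for these labels throughout, and every direction rests on them. Markers of mature neutrophils also separated the groups, as given further below.

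Collagens are the main structural proteins of the extracellular matrix. Each molecule is a triple helix of chains in which glycine recurs at a fixed step along the chain, which lets the strands pack, and each chain has its own gene. Fibril-forming collagens build cables, collagen IV builds the sheet of basement membranes, collagen VI forms beaded filaments beside cells, and FACIT collagens (fibril-associated collagens with interrupted triple helices) sit on fibrils. In marrow, osteoblasts, stromal cells and vessels are the usual makers of collagens I, III and IV, while blood cells mostly bind collagen through receptors.

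The glycine repeat can be read in the exons of the members on which the comparison turns. In the longest coding transcript of each of the 44 genes (GENCODE M21, build GRCm38), a whole coding exon was counted as a repeat exon when a GGN codon, which encodes glycine, opened it and returned every 9 bases to its end. Such exons numbered 995 in 39 of the genes, and 452 of them were 54 bases long. One 54-base repeat exon is shown for each of the 3 genes that passed the test, 5′ to 3′ on the coding strand with the GGN codons in capitals. They are exon 15 of Col5a1 (chr2:27965251-27965304, plus strand), exon 16 of Col6a3 (chr1:90795915-90795968, minus strand) and exon 13 of Col6a6 (chr9:105760051-105760104, minus strand).
Col5a1: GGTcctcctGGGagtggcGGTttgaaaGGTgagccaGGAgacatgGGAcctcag
Col6a3: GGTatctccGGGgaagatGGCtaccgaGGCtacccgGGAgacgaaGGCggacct
Col6a6: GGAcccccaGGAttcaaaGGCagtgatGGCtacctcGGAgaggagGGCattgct
All 3 exons share the spacing of the capitals. The longest run of the repeat without a break was 338 GGN codons in Col5a1, 45 in Col6a3 and 42 in Col6a6. Col5a1 has 48 repeat exons among its 66 coding exons, whereas Col6a3 has 15 among 43 and Col6a6 has 12 among 36.

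Most collagen genes were at or near the limit of detection in these cells. Over both groups the 44 members had 29566 counts, 0.0145% to 0.0207% of the counts of a library. A mean of at least 1 CPM in either group was reached by 15 members, and 29 stayed below it in both. The filter on low counts, edgeR's filterByExpr, asked for about 0.365 CPM (10 counts at the median library size) in at least 3 libraries and left 21 members, of which 20 had at least 1 library of each group above that level. Col6a3 passed through the WT libraries alone, so it had to differ. The 23 members that did not pass had 446 counts between them, 1.51% of the family's.

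Of the 21 tested members, Col6a6 and Col5a1 rose in KO, Col6a3 fell and 18 did not pass the test (edgeR's quasi-likelihood test, adjusted p under 0.05 by Benjamini-Hochberg over 15963 genes). Among all tested genes 8.57% were called, 5.45% higher (870 genes) and 3.12% lower (498 genes). With total counts as the only scaling the calls were 597 higher and 682 lower, with the same collagen genes among them. The median log2FC was 0.29 over the tested members and -0.01 over all tested genes. With 1 library left out, the median of the members ran from 0.002 (without KO library 31) to 0.58 (without WT library 27). The values of the groups did not overlap for 6 tested members, 4 with KO above and 2 with KO below, where 33.7% of all tested genes did not overlap, 17.2% with KO above and 16.5% below. In bulk RNA, fewer cells of a type and less RNA per cell cannot be told apart for any of these genes.

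**Figure D1:**
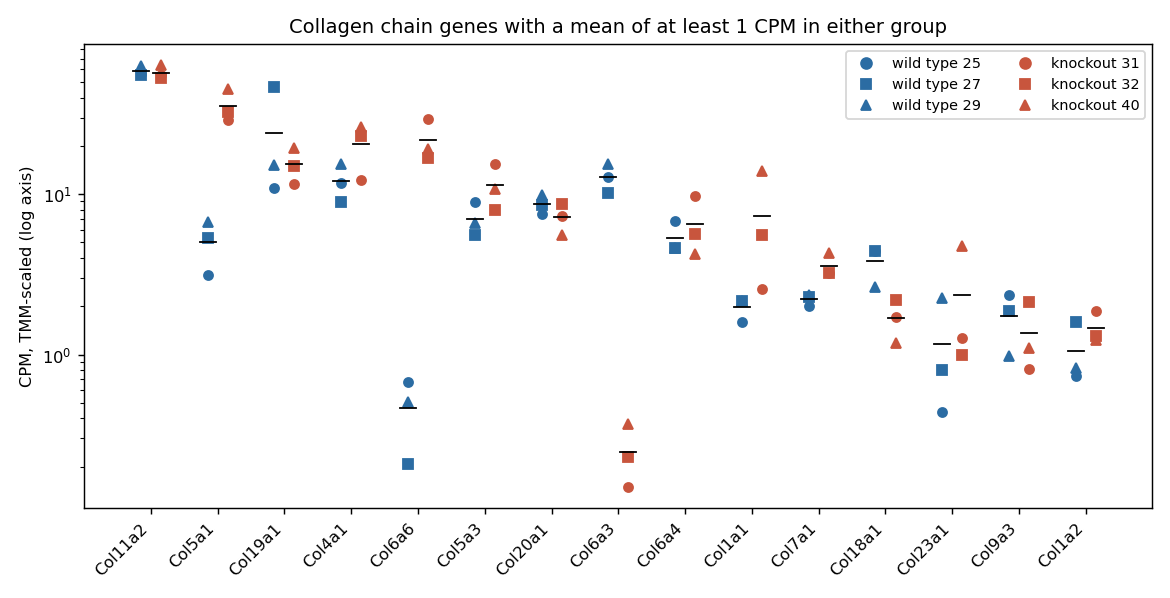
CPM (TMM-scaled, log axis) of the 15 collagen chain genes with a mean of at least 1 CPM in either group, with 1 point per library, blue for WT, red for KO, and black bars for group means (n = 3). Col11a2 sits near 58 CPM in both groups, while Col5a1, Col6a6 and Col6a3 show the wide gaps between groups.

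Collagen VI held both of the largest changes, in opposite directions. Its classical molecule combines the chains of Col6a1, Col6a2 and one longer chain, for which Col6a3, Col6a4, Col6a5 and Col6a6 are the candidates in mouse. Col6a6 (ENSMUSG00000043719, chromosome 9, 105565008 to 105705359, minus strand, in the coordinates of the deposited table, for which no build is named there) had 23, 6 and 16 counts in WT libraries 25, 27 and 29 and 791, 437 and 470 in KO libraries 31, 32 and 40. These are 0.676, 0.208 and 0.507 CPM against 29.4, 16.7 and 19.2 CPM. All 3 KO libraries stood far above all 3 WT libraries. The mean rose from 0.464 ± 0.237 to 21.8 ± 6.73 CPM (SD, n = 3 each), with a log2FC of 5.52 ± 0.42 SE (95% interval 4.54 to 6.50, a fold of 45.9, edgeR adjusted p = 0.00145).

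Col6a3, the long chain of the classical collagen VI molecule, went the other way. The gene (ENSMUSG00000048126, chromosome 1, 90693645 to 90771693, minus strand, table coordinates) had 433, 291 and 488 counts in WT and 4, 6 and 9 in KO. These are 12.7, 10.1 and 15.5 CPM against 0.149, 0.229 and 0.367 CPM, with no overlap. The mean fell from 12.8 ± 2.68 to 0.248 ± 0.111 CPM (SD, n = 3 each), a log2FC of -5.67 ± 0.38 SE (95% interval -6.55 to -4.80, 50.9 times lower, edgeR adjusted p = 0.000635). The WT libraries thus carried Col6a3 as their main collagen VI transcript and the KO libraries Col6a6.

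The other collagen VI genes did not pass the test or were too low to enter it. Col6a4, a long chain whose gene lies in the same cluster as Col6a6, was at 6.79, 4.61 and 4.59 CPM in WT and 9.73, 5.65 and 4.20 CPM in KO (log2FC 0.29, 95% interval -0.51 to 1.10, edgeR adjusted p = 0.637), and without KO library 31 its value was -0.12. Col6a1, which every classical collagen VI molecule needs, had 20, 10 and 2 counts in WT and 14, 5 and 3 in KO (log2FC -0.25, 95% interval -2.16 to 1.65). Col6a2, its equally needed partner, had 6, 4 and 2 counts against 11, 6 and 11 and was not tested. Col6a5, which lies between Col6a6 and Col6a4 on chromosome 9, had 3, 10 and 1 counts against 1, 1 and 1. Per kilobase of the gene length in the table, Col6a3 in WT stood at 1.07 CPM, Col6a6 in KO at 2.37 CPM and Col6a4 at 0.625 and 0.766 CPM in WT and KO, while Col6a1 was at 0.0759 and 0.0634 CPM. A long chain was therefore present without comparable transcripts of its short partners in either group.

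Among the fibril-forming collagens Col5a1 rose and 6 tested members did not pass. Col5a1, a chain of collagen V that takes part in starting collagen I fibrils, lies on chromosome 2 (ENSMUSG00000026837, 27776437 to 27929526, plus strand, table coordinates). It had 106, 153 and 211 counts in WT and 783, 846 and 1103 in KO, or 3.11, 5.31 and 6.68 CPM against 29.1, 32.3 and 45.02 CPM. The lowest KO library was above the highest WT library. The mean rose from 5.04 ± 1.80 to 35.5 ± 8.42 CPM (SD, n = 3 each), with a log2FC of 2.82 ± 0.30 SE (95% interval 2.11 to 3.52, a fold of 7.05, edgeR adjusted p = 0.00464). Leaving out any 1 library kept the calls of Col5a1, Col6a6 and Col6a3, with highest adjusted p of 0.0184, 0.00843 and 0.00379. For Col6a3, which passed the filter through the WT libraries alone, the fall was built in.

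The partners of Col5a1 were not called. Col5a2, the chain with which it usually assembles, had 29, 10 and 5 counts in WT against 7, 7 and 3 in KO and did not pass the filter. Col5a3, the third chain of collagen V, was at 8.96, 5.55 and 6.62 CPM against 15.4, 7.90 and 10.8 CPM, with overlap (log2FC 0.69, 95% interval 0.01 to 1.37, edgeR adjusted p = 0.183). Per kilobase, Col5a1 moved from 0.588 to 4.14 CPM beside 1.03 and 1.67 CPM for Col5a3. The order of the 2 genes by mean level was thus Col5a3 above Col5a1 in WT and the reverse in KO.

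Col11a2, a chain of the cartilage collagen XI, had the highest mean level of the family in both groups. Its values were 56.5, 55.2 and 62.8 CPM in WT and 55.3, 52.8 and 63.7 CPM in KO, and they overlapped fully. Its log2FC was -0.02 with a 95% interval of -0.27 to 0.23, and it turned to a value above 0 in 3 of the 6 fits that left out 1 library. Per kilobase it stood at 8.46 ± 0.593 CPM in WT and 8.33 ± 0.834 CPM in KO (SD, n = 3 each), above 62.4% of the tested genes. Its partner Col11a1 had 4 counts in 1 WT library and 0 in the other libraries. Col2a1, which supplies the third chain of collagen XI, had 28 counts in WT and 16 in KO.

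The collagen I genes were low and differed between libraries of the KO group. Col1a1, the main chain of bone and skin collagen, was at 1.59, 2.15 and 2.15 CPM in WT and at 2.56, 5.54 and 13.9 CPM in KO. The groups did not overlap, but KO library 40 alone held more than the other 2 KO libraries together. The log2FC was 1.90 ± 0.58 SE (95% interval 0.55 to 3.24), and it did not pass the test (edgeR adjusted p = 0.0849), whereas DESeq2 called it higher (adjusted p = 0.00573). Without KO library 40 it was 1.05 (adjusted p = 0.244), and without KO library 31 it was 2.31 and passed (adjusted p = 0.0418). Col1a2, its partner in collagen I, was at 0.734, 1.60 and 0.824 CPM against 1.86, 1.30 and 1.22 CPM (log2FC 0.48, 95% interval -0.51 to 1.46). Col3a1, the usual companion of collagen I in soft tissue, had 5, 11 and 4 counts against 4, 8 and 14.

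Collagen IV showed a wide gap between the genes of a pair that share a promoter region. Col4a1 and Col4a2 lie head to head on chromosome 8, overlap by 22 bases in the table, and together encode the common molecule of basement membranes. Col4a1 was at 11.8, 8.88 and 15.3 CPM in WT and 12.3, 23.0 and 26.2 CPM in KO, with overlap (log2FC 0.77 ± 0.31 SE, 95% interval 0.05 to 1.49, edgeR adjusted p = 0.164). Col4a2 had 9, 21 and 5 counts against 26, 10 and 29 (log2FC 1.14, 95% interval -0.41 to 2.69, adjusted p = 0.318). Per kilobase Col4a1 stood at 1.61 ± 0.433 and 2.74 ± 0.976 CPM in WT and KO, and Col4a2 at 0.0580 ± 0.0458 and 0.127 ± 0.0626 CPM (SD, n = 3 each). Every library had more Col4a1 than Col4a2.

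The second pair, Col4a3 and Col4a4, encodes chains of the kidney filter and other special basement membranes. Col4a4 was at 0.999, 0.763 and 0.824 CPM in WT and 0.260, 0.535 and 1.14 CPM in KO (log2FC -0.42, edgeR adjusted p = 0.667), and Col4a3 had 10 counts in WT and 8 in KO. The X-linked pair Col4a5 and Col4a6 had 2 and 0 counts in WT and 10 and 2 in KO, too few for a test.

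**Figure D2:**
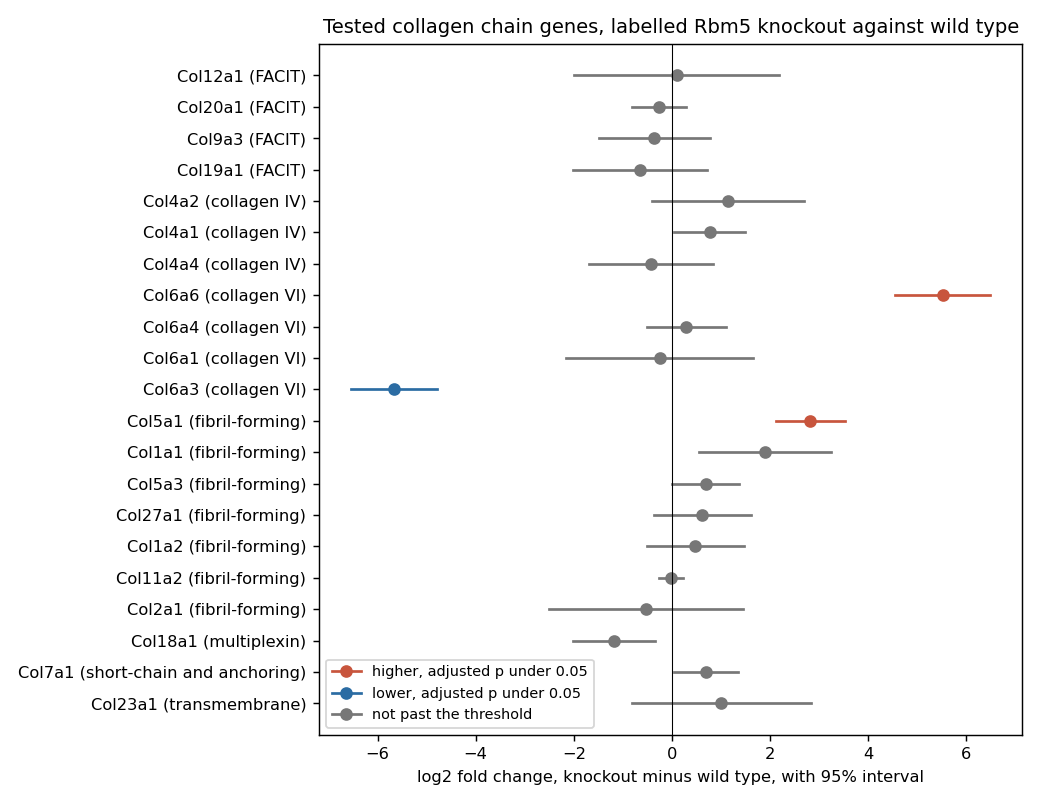
Log2FC, KO minus WT, of the 21 tested collagen chain genes with 95% intervals, grouped by class (n = 3 libraries per group). Col6a6 at 5.52, Col5a1 at 2.82 and Col6a3 at -5.67 lie apart from the other 18, whose values run from -1.18 (Col18a1) to 1.90 (Col1a1).

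None of the 4 tested FACIT genes passed the edgeR test, and 0 had an unadjusted p under 0.05 or were called by DESeq2 or limma-voom. Col19a1, found on basement membranes and in developing muscle and nerve, was at 10.9, 46.2 and 15.1 CPM in WT and 11.6, 14.9 and 19.5 CPM in KO. WT library 27 stood apart from the other 5 libraries. The log2FC of -0.65 (95% interval -2.01 to 0.71) turned to 0.22 without that library. Col20a1 was at 7.49, 8.53 and 9.88 CPM against 7.28, 8.67 and 5.59 CPM (log2FC -0.27). Its first 741 bases overlap a noncoding gene on the same strand, so part of its count is uncertain. Col9a3, a chain of cartilage collagen IX, was at 2.35, 1.87 and 0.982 CPM against 0.817, 2.14 and 1.10 CPM (log2FC -0.36), and Col12a1 had 33 counts in WT and 30 in KO.

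Of the remaining tested genes, Col18a1 had lower and Col7a1 higher values in every KO library than in any WT library, without passing the test over all genes. Col18a1, a basement membrane collagen whose end fragment is endostatin, was at 4.44, 4.44 and 2.63 CPM in WT and 1.71, 2.18 and 1.18 CPM in KO (log2FC -1.18 ± 0.36 SE, 95% interval -2.02 to -0.34, edgeR adjusted p = 0.084). DESeq2 called it lower (adjusted p = 0.0222). It overlaps Slc19a1 on the opposite strand by 8825 bases, and Slc19a1 had 8647 counts to its 494. The labels do not say whether counting was strand-aware, so reads of the 2 genes may be mixed. Col7a1, the anchoring fibril chain, was at 2.00, 2.29 and 2.34 CPM against 3.23, 3.21 and 4.29 CPM (log2FC 0.69, 95% interval 0.04 to 1.35, adjusted p = 0.166). Col23a1, a transmembrane collagen, was at 0.441, 0.798 and 2.25 CPM against 1.26, 0.993 and 4.78 CPM (log2FC 1.01), and its value was -0.04 without KO library 40. Col27a1, a cartilage fibril chain, was at 0.441, 0.659 and 0.412 CPM against 0.594, 0.840 and 0.898 CPM (log2FC 0.62, 95% interval -0.36 to 1.61).

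The 23 untested members ranged from 0 to 69 counts over the 6 libraries. Col13a1, a transmembrane collagen, had 0 counts in all, which allows up to 3 counts of 171457858, or 0.0174 CPM, by counting error alone. Col4a6, Col9a1, Col9a2 and Col24a1 had 0 counts in WT only, and Col11a1 and Col26a1 in KO only. All 9 counts of Col9a2 came from KO library 40. Col15a1, a multiplexin of vessel basement membranes, had 11, 1 and 7 counts in WT and 10, 29 and 11 in KO. Col10a1, a marker of hypertrophic cartilage, had 11, 11 and 13 counts in WT and 4, 3 and 1 in KO, but it lies wholly within Nt5dc1 on the opposite strand, which had 9395 counts to its 43. Col22a1, a FACIT collagen of tissue junctions, had 0, 1 and 1 counts in WT and 0, 12 and 2 in KO, and Col8a1, a short-chain collagen of vessel walls, had 1, 2 and 5 against 15, 2 and 1, so that in each the counts of KO came mostly from 1 library. Of Col16a1, a FACIT collagen, 8 counts were found in WT and 9 in KO, and of its class member Col14a1 2 in each group. The transmembrane collagens Col17a1 and Col25a1 had 8 and 10 counts in WT and 12 and 6 in KO. Col8a2 had 4 counts in 1 library of each group, and Col28a1 had 5 counts in WT and 9 in KO. In total 9 members had fewer than 10 counts over the 6 libraries, and no statement on their direction is possible at this depth.

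The summed collagen level was higher in every KO library than in any WT library, and its makeup differed. The sum over the 44 members was 136, 164 and 152 CPM in WT and 187, 184 and 228 CPM in KO. The means of the sum were 150 CPM in WT and 200 CPM in KO. In WT and KO, Col5a1 had means of 5.04 and 35.5 CPM and Col6a6 of 0.464 and 21.8 CPM. Col6a3 had 12.8 and 0.248 CPM. The sum holds these called genes, so its rise is not a separate result about the family. Col11a2 made up 38.9% ± 4.49 of collagen counts in WT and 28.8% ± 0.769 in KO (SD, n = 3 each). Col6a3 took 8.57% ± 2.13 in WT and 0.122% ± 0.0410 in KO, and Col6a6 took 0.320% ± 0.186 and 11.1% ± 4.01. Col5a1 went from 3.31% ± 1.06 to 17.6% ± 2.12. These shares sum to 100 in each library, so a higher share of 1 gene lowers those of the others, and they are not scaled by gene length.

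**Figure D3:**
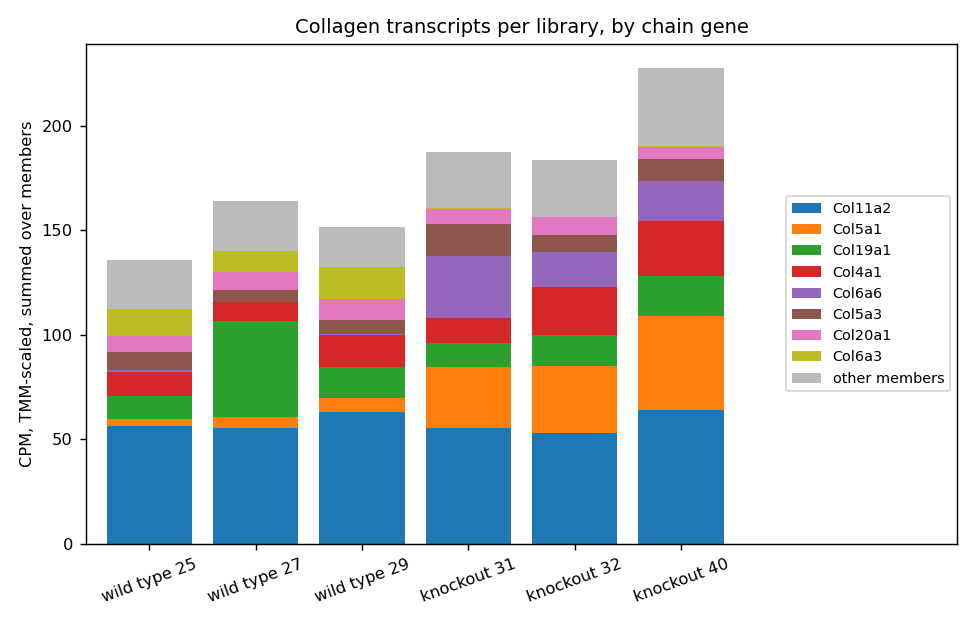
CPM (TMM-scaled) summed over the 44 collagen chain genes in each library, stacked by gene for the 8 members with the highest mean and grey for the others. The 3 WT bars reach 136 to 164 CPM and the 3 KO bars 184 to 228 CPM, with Col6a3 visible only in WT and Col5a1 and Col6a6 thick only in KO.

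The genes beside the 3 changed members were read in the table's coordinates, as the nearest protein-coding gene on each side, a choice made after the values were seen. The cluster of Col6a6, Col6a5 and Col6a4 on chromosome 9 held Col6a6 as its called gene, with Col6a4 not called and Col6a5 not tested. Pik3r4, which lies 151 bases from Col6a6 and encodes a regulatory subunit of a lipid kinase, was at 47.1 ± 4.72 CPM in WT and 50.3 ± 3.46 CPM in KO (SD, n = 3 each, log2FC 0.09, and -0.03 with total counts as the only scaling). Glyctk, on the far side of Col6a4, had a log2FC of -0.05. Around Col6a3, Cops8, a subunit of the COP9 signalosome, was at 69.1 ± 2.48 and 67.2 ± 7.84 CPM, with a log2FC of -0.04. Mlph, the melanophilin gene 71113 bases to the other side, fell with Col6a3, from 63, 44 and 49 counts in WT to 1, 1 and 0 in KO (edgeR adjusted p = 0.00452). Like Col6a3, Mlph passed the filter on low counts through the WT libraries alone, so it had to differ.

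Beside Col5a1, Fcnb, which encodes a ficolin of myeloid cells and lies 36863 bases away, rose from 7.81, 19.0 and 46.1 CPM to 257, 267 and 433 CPM (log2FC 3.71 ± 0.69 SE, edgeR adjusted p = 0.0346). It stayed past the threshold in 1 of the 6 fits that left out 1 library, and without WT library 27 its adjusted p was 0.117. Rxra, the retinoid receptor gene on the other side, was at 33.2, 15.9 and 17.6 CPM against 37.9, 39.5 and 33.7 CPM, without overlap. It had a log2FC of 0.73 (edgeR adjusted p = 0.139), which without WT library 25 was 1.14 and passed (adjusted p = 0.0127). Over the whole family, 72 genes other than collagens lay next to a member, 54 were tested, and 2 rose and 1 fell, beside 8.57% called of all tested genes. The remaining one was Orm1, an acute phase gene next to Col27a1, with a log2FC of 4.12 (adjusted p = 0.0395), past the threshold in 1 of the 6 fits that left out 1 library and at 0.119 without KO library 40.

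**Figure D4:**
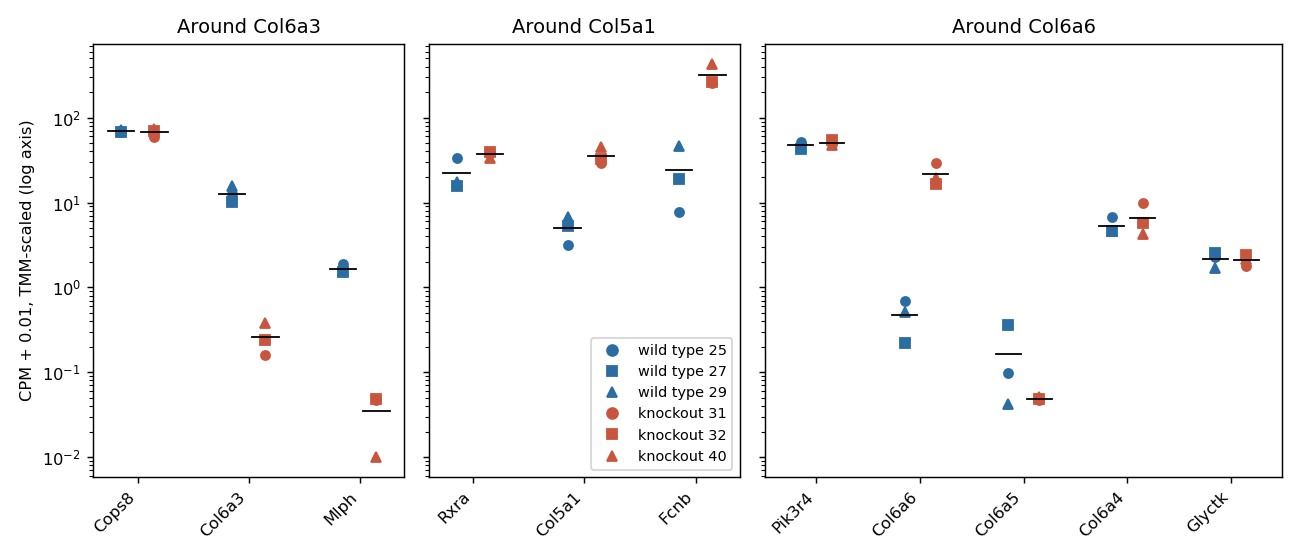
CPM + 0.01 (TMM-scaled, log axis) by library for Col6a3, Col5a1 and the Col6a6 cluster with the nearest protein-coding genes on each side, in the order of the chromosome; black bars are group means (n = 3). Mlph separates by group with Col6a3, and Fcnb and Rxra with Col5a1, whereas Cops8, Pik3r4, Col6a4 and Glyctk overlap between groups. Rxra separates narrowly, with 33.2 CPM in WT library 25 and 33.7 CPM in KO library 40.

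Promoter sequences of the 3 changed members are shown because 2 of them rose and 1 fell. RefSeq windows on GRCm38.p6 were found for 35 of the 44 genes (38 windows), and the 250 bases before the annotated start were searched on both strands for 4 motifs. These were the TATA box, searched as TATAAA, the CAAT box, searched as CCAAT, the GC box, searched as GGGCGG, and the E-box that MYC binds, searched as CACGTG. The windows are chr2:27886175-27886424 (plus strand) for Col5a1, chr1:90843972-90844221 (minus strand) for Col6a3 and chr9:105828086-105828335 (minus strand) for Col6a6, with every match in capitals.
Col5a1: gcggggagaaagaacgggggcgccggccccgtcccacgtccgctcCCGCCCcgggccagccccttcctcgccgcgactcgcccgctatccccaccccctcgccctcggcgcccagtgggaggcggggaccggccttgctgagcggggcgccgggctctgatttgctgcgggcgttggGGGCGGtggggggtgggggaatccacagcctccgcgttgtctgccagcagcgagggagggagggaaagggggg
Col6a3: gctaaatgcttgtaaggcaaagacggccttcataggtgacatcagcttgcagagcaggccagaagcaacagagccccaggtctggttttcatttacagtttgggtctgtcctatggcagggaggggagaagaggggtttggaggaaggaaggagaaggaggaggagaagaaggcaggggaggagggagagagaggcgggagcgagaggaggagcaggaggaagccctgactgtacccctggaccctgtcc
Col6a6: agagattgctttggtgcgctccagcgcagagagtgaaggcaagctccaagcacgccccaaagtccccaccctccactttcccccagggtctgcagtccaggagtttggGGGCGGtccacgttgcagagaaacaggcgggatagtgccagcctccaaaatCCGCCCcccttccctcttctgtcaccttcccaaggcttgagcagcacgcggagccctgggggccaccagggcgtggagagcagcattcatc
The GC box, in either orientation, was the only one of the 4 motifs in these windows, and Col6a3 held none of the 4. Over the family, 57.9% of windows held the GC box, 34.2% the CAAT box, 13.2% the TATA box and 0.0% the E-box. Over all 32851 windows of the same length the shares were 32.7%, 33.8%, 12.4% and 6.0%. The median GC content was also higher in the windows of the family, 59.0% against 52.4%, and its part in the GC box matches was not tested. Col5a1 had a GC content of 76.4% and an observed-to-expected CpG ratio of 0.772, against 57.2% and 0.172 for Col6a3 and 62.4% and 0.414 for Col6a6. A match or its absence in such a window describes the letters only.

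Genes that make, cut, bind and degrade collagen were counted by list, 109 genes other than collagens, of which 63 were tested, 6 rose and 1 fell (edgeR over all genes), beside 5.45% higher and 3.12% lower of all tested genes. Of 12 tested genes of collagen biosynthesis, 0 passed and 3 had an unadjusted p under 0.05, while DESeq2 called 1 lower and limma-voom 0. P3h1, a prolyl 3-hydroxylase, and Mia3, which loads procollagen into transport carriers, had log2FC values of -0.65 and 0.24 (adjusted p = 0.0868 and 0.152). Of 5 procollagen processing genes, Furin, the proprotein convertase, rose from 113 ± 13.0 to 158 ± 17.3 CPM (log2FC 0.48, adjusted p = 0.0466), and it did not pass in any fit that left out 1 library (highest adjusted p 0.145, without KO library 40). Of 3 tested crosslinking genes, 0 passed by edgeR, DESeq2 or limma-voom and 0 had an unadjusted p under 0.05. The lysyl oxidase genes Loxl3 and Lox had log2FC values of -0.23 and 0.55.

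Of 9 tested receptors of collagen, 2 rose, 1 fell and 6 did not pass. Antxr2, a receptor that binds collagen IV and collagen VI, was at 14.7, 24.7 and 22.7 CPM in WT and 53.7, 42.2 and 61.6 CPM in KO (log2FC 1.34 ± 0.22 SE, edgeR adjusted p = 0.0161), with no overlap, and its adjusted p was 0.0511 without KO library 31 and 0.0594 without KO library 40. Lair1, an inhibitory collagen receptor of leukocytes, rose from 37.2 ± 6.59 to 61.8 ± 7.02 CPM (log2FC 0.73, adjusted p = 0.0292, past the threshold in 2 of the 6 fits that left out 1 library and at 0.0699 without KO library 40). Adgrg1, an adhesion receptor that binds collagen III, was at 177, 90.2 and 105 CPM against 49.6, 43.5 and 23.0 CPM (log2FC -1.68, adjusted p = 0.0454). It did not pass in any fit that left out 1 library (highest adjusted p 0.0886, without KO library 32).

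Of 9 tested degradation genes Mmp9, a gelatinase of neutrophil granules, rose and 8 did not pass. Its mean went from 91.2 ± 20.9 to 620 ± 229 CPM (log2FC 2.76 ± 0.31 SE, edgeR adjusted p = 0.00708). Of 9 tested matrix partners Vcan, the proteoglycan versican, rose from 4.20, 1.46 and 1.65 CPM to 26.6, 76.4 and 120 CPM (log2FC 4.92 ± 0.75 SE, adjusted p = 0.0218). Vcan stayed past the threshold in 3 of the 6 fits that left out 1 library, with highest adjusted p of 0.0728 without WT library 27. Of 6 tested basement membrane genes Agrn, the proteoglycan agrin, rose from 42.3 ± 3.55 to 69.4 ± 4.79 CPM (log2FC 0.71, adjusted p = 0.0105, called with any 1 library left out). Of 10 tested TGF-beta signalling genes, 0 passed by edgeR or limma-voom, 6 had an unadjusted p under 0.05 and DESeq2 called 2 higher. No share over all tested genes stands beside the counts by unadjusted p or DESeq2, so they have no baseline. Ski and Skil, repressors of SMAD proteins, had log2FC values of 0.50 and 0.92 (adjusted p = 0.0689 and 0.083). Median log2FC values were 0.05 for biosynthesis, 0.04 for processing, 0.32 for crosslinking, 0.12 for receptors, 0.68 for degradation, 0.71 for matrix partners, 0.33 for basement membrane and 0.29 for TGF-beta signalling, beside -0.01 over all tested genes.

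Marker genes of the cells that usually make collagen were scarce. Of 10 marrow stromal and fibroblast markers 3 were tested and 0 called, and their summed level was 33.4 to 71.0 CPM in WT and 17.3 to 38.6 CPM in KO, mostly from Pdgfrb. The defining gene Dcn had 1, 0 and 0 counts in WT and 9, 2 and 5 in KO, and Lum had 0 counts in 5 libraries and 8 in KO library 31. Of 8 osteoblast and osteocyte markers 2 were tested and 0 called, with summed levels of 9.34 to 14.95 and 11.4 to 15.6 CPM, Bglap2 at 0 counts in all libraries, and Sp7 at 3 counts in KO. The 6 chondrocyte markers summed to 0.824 to 1.498 CPM in WT and 1.04 to 1.67 CPM in KO, with Acan and Sox9 at 0 counts in all libraries, beside the 58.2 CPM of Col11a2. Endothelial markers summed to 93.1 to 182 and 73.9 to 153 CPM, nearly all of it from Pecam1, which blood cells also express, with Emcn at 0 counts and Cdh5 at 3 to 11 per library. Pericyte and smooth muscle markers summed to 4.62 to 7.91 and 7.504 to 11.9 CPM. Of these 3 last lists 1, 2 and 4 members were tested and 0 called. For these 5 lists, unadjusted p under 0.05 was reached by 1, 1, 0, 0 and 2 genes in the order given, DESeq2 called 1 stromal gene lower and 0 in the other lists, and limma-voom called 0.

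Among blood cell markers, those of neutrophils differed between the groups. By edgeR, 5.45% of all tested genes were called higher. Of 8 tested myeloid leukemia and progenitor genes, 2 rose and 6 did not pass (DESeq2 and limma-voom each called 3 higher), with summed levels of 2611 to 3399 CPM in WT and 4047 to 5176 CPM in KO. Ptprc, the pan-leukocyte CD45 gene, went from 365 ± 17.8 to 595 ± 73.7 CPM (edgeR adjusted p = 0.0143, and 0.0539 without KO library 40), and Itgam, the CD11b gene, from 126 ± 8.06 to 257 ± 59.0 CPM (adjusted p = 0.0127). Of 8 neutrophil markers, Mmp9 among them, 5 rose, 3 did not pass and 0 were at 0 counts throughout. All 8 had an unadjusted p under 0.05, and DESeq2 and limma-voom each called 7 higher. For unadjusted p, DESeq2 and limma-voom, no share over all tested genes is given beside this or any other list. Such counts therefore have no baseline here. The summed level of the neutrophil markers was 600 to 2230 CPM in WT and 8464 to 15295 CPM in KO, without overlap. Col5a1, Col6a6 and Fcnb also rose, among 870 genes called higher, whereas Col6a3 fell. The part of neutrophils in the collagen values was not tested.

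Macrophage markers had 0 of 7 tested genes called by edgeR or limma-voom (4 with an unadjusted p under 0.05, 2 called higher by DESeq2) and summed to 323 to 378 and 390 to 469 CPM, also without overlap. Of 5 tested megakaryocyte and platelet markers, Gp9 rose (log2FC 1.59, edgeR adjusted p = 0.0323, past the threshold in 1 of the 6 fits that left out 1 library and at 0.107 without KO library 40), with sums of 40.8 to 89.8 and 51.4 to 81.3 CPM. Erythroid markers summed to 1.33 to 2.73 and 2.53 to 3.64 CPM, B lineage markers to 77.7 to 124 and 71.2 to 180 CPM, and T lineage markers to 0.486 to 0.665 and 1.45 to 3.51 CPM. The edgeR test called 0 genes of these 3 lists, with an unadjusted p under 0.05 for 0, 0 and 2, and DESeq2 called 0, 0 and 1.

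**Figure D5:**
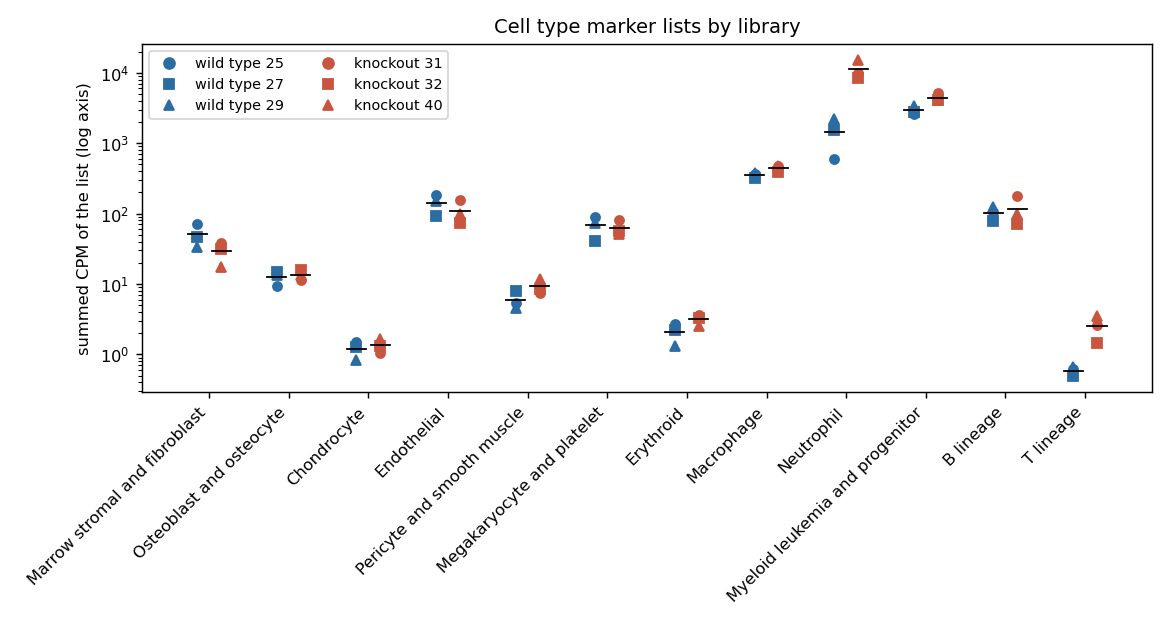
Summed CPM (TMM-scaled, log axis) of each cell type marker list by library, blue for WT and red for KO, with black bars for group means (n = 3). Neutrophil markers lie at 600 to 2230 CPM in WT and 8464 to 15295 CPM in KO, while the osteoblast, chondrocyte and pericyte lists reach at most 15.6 CPM in any library.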

How the data were processed

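Bulk RNA sequencing of 3 WT and 3 KO libraries was used. The values are raw counts per gene, whole numbers, as the authors deposited them. The submitters' processing notes name Salmon, limma, GRCm38 and mm10 without a step. The sources used here do not say how the counts were made or whether strand entered. Table coordinates are printed as deposited, with no build named. The gene length deposited with the counts served only for levels per kilobase.

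Genes were kept by filterByExpr (minimum count 10, minimum total 15), scaled by TMM and tested with the robust quasi-likelihood fit of edgeR 4.0.16 in R 4.3.3, KO against WT without covariates, with Benjamini-Hochberg adjustment over 15963 genes. The SE was the size of the log2FC over the root of its F statistic. The procedure was tested on simulated counts with changes placed only in genes above 1 CPM and no difference in sex or cell makeup. That simulation did not cover changes in members below this level, and no result given here rests on it. Library pairs differed beyond sampling noise (lowest chi-square per degree of freedom 43.9).

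Members and lists were chosen with earlier results of these data known. All members may be named, and of each other list up to 3 called genes with the smallest p, or 2 with none called, and markers at or near 0. Neighbouring genes were chosen after their values were seen. Alternatives were other scalings, filters and tools (DESeq2 1.42.0, limma-voom 3.58.1), no robust shrinkage, and leaving out libraries or sex chromosomes. The upper limit given for Col13a1 covers counting error only. The intervals of the log2FC rest on the SE of the quasi-likelihood fit, which includes the spread between libraries.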

Additional observations from a re-analysis of the deposited data

How the results depend on the processing

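Col5a1, Col6a6 and Col6a3 kept their direction and stayed past the threshold under every alternative run. Col6a3 passed the filter through the WT libraries alone, so its fall was built in wherever that filter was used. With 1 library left out, the collagen genes called were 2 to 3 higher and 1 lower, all genes called 245 to 787 higher and 102 to 440 lower, and pathway genes 3 to 5 higher and 0 lower. DESeq2 called 1557 genes higher and 1050 lower, 3 collagen genes higher (Col1a1 added) and 2 lower (Col18a1 added), and 9 pathway genes higher and 2 lower. Without a filter, 836 genes and 0 pathway genes were called lower. Against WT library 25 alone, an arm of 1 library assumed to vary like the KO libraries, the counts were 305 higher and 148 lower, with 1 pathway gene higher and 0 lower. The causes were not tested. In that fit Col11a2, Col19a1, Col6a4 and Pik3r4 turned to 0.0081, 0.48, -0.067 and -0.068. Scaling by total counts alone shifted the median of all genes by -0.12, turned both Col12a1 and Pik3r4 to -0.028, and called 597 higher and 682 lower. Leaving out 1 library gave ranges across 0 of -0.10 to 0.036 (Col11a2), -1.0 to 0.22 (Col19a1), -0.12 to 0.53 (Col6a4), -0.040 to 1.92 (Col23a1), -0.48 to 0.94 (Col12a1), -1.07 to 0.46 (Col6a1), -0.10 to 0.052 (Cops8) and -0.21 to 0.059 (Glyctk). No paired analysis was possible because the groups share no replicate numbers. Without the filter 43 collagen genes were tested, and Col5a1, Col6a6 and Col6a3 were the ones called.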
